A study of Homo sapiens with 6 samples.

Results

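The genes described here encode the enzymes that cut the extracellular matrix and the lysosomal proteases, together with their inhibitors and receptors: matrix metalloproteases (MMPs), ADAM and ADAMTS proteases, the urokinase system, cathepsins, tissue inhibitors of metalloproteases (TIMPs), cystatin C, heparanase and the activating protease furin. They were chosen by name from a list of 41 symbols, of which 39 were matched among the 28979 gene IDs of the count files. MMP7 and MMP10 were not matched, so that only their promoter sequences are described here. The 6 libraries were made from poly-A RNA of MDA-MB-231, an established line of human breast cancer cells with mesenchymal features and no estrogen receptor. The labels give 3 libraries as Con and 3 as Ang, and name the cell line as the same in all 6. According to the series' design text, these cells had been given exosomes, small vesicles shed by cells, taken either from normal or from hypertrophic cardiomyocytes, in a search for genes targeted by microRNAs. The labels do not spell out Con or Ang, or tie either of them to a vesicle source, dose or time, so both names are used as they stand. Nor do they say that replicates were separate cultures, so p-values measure only the spread between these libraries.

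Invading tumour cells open the matrix with proteases that work in series. Urokinase, held at the cell surface by its receptor, turns plasminogen into plasmin, and plasmin activates secreted MMPs. Membrane-type MMPs are activated inside the cell by furin and cut collagen at the cell edge, and MMP14 together with TIMP2 activates MMP2. ADAM proteases release growth factors and receptors from the cell surface. Cathepsins digest protein in lysosomes and can be secreted, where cystatins restrain the cysteine cathepsins. MDA-MB-231 is a common model for this kind of invasion.

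The libraries held 3369212 to 5437190 counts each, and a count of 0 allows up to 3 counts, or 0.552 to 0.890 counts per 1000000 (CPM). Of the markers listed for this line and for mesenchymal cells, 7 of 8 were abundant enough to be tested, while SPARC had fewer than 10 counts over all libraries. VIM, the vimentin gene, had a mean of 928 ± 152 CPM in Con, against 1032 ± 49.6 in Ang (SD, n = 3 each). Of the exon bases of VIM 24.4% lie under a gene on the other DNA strand. CD44, with 0.840% there, had 426 ± 49.1 CPM in Con and 498 ± 26.8 in Ang. CAV1, with 0% there, had 167 ± 31.4 and 194 ± 11.4 CPM. ESR1, the estrogen receptor gene, had fewer than 10 counts, as had the progesterone receptor gene PGR. Both belong to a list of 7 epithelial or luminal markers, of which 4 were abundant enough to be tested. The 7 summed to 96.6 to 157 CPM in Con and 114 to 151 CPM in Ang, so this list as a whole was not absent. The 6 matched macrophage and leukocyte markers of 8 summed to 5.41 to 7.55 CPM in Con and 5.55 to 9.24 CPM in Ang, the 5 matched fibroblast markers of 7 to 11.8 to 15.7 and 7.92 to 10.7 CPM, and the 7 matched cardiomyocyte markers of 11 to 7.18 to 19.2 and 7.56 to 13.0 CPM. No matched marker was at 0 in all libraries. Con replicate 2 stood apart from the other 5 libraries. Genes without a protein product that lie under the exons of a protein-coding gene on the other DNA strand had a median of 23.2 times as many counts per base as that coding gene in Con replicate 2, against 32.9 to 41.1 times in the others, over 250 such pairs, and protein-coding genes held 61.0% of its counts against 52.9% to 57.0%. The library protocol names no step that keeps the strand of the RNA, and the strand setting of the read counter is not given in the sources used here, so from which gene of such a pair the reads came cannot be told from these files, although the deposited counts assign reads to both. As these are bulk libraries, fewer cells of a kind and less RNA per cell cannot be told apart either.

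The overlap reached several of the genes at issue, and their sequences show how close it is. In the GENCODE 29 annotation on GRCh38, 6 of the 39 genes had more than 10% of their exon bases under exons of the other strand: PLAU (31.1%), CTSA (28.5%), MMP24 (21.8%), MMP9 (18.4%), CTSD (15.8%) and ADAM17 (13.6%), and 26 had none. The stretches below are parts of coding exons that both genes of a pair contain, each read 5′ to 3′ on its own strand from the GENCODE 29 transcripts, so that the members of a pair are exact reverse complements. They are shown because the sequence alone, without its strand, does not tell which gene a read came from. The PLAU stretch lies at chr10:73912215-73912274 on the plus strand, in exon 4 of 11, and C10orf55 is transcribed across it on the minus strand.
PLAU: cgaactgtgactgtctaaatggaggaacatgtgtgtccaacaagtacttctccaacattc
C10orf55: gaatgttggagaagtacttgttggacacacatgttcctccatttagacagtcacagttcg

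The stretch of CTSD, the gene of the lysosomal aspartic protease cathepsin D, lies at chr11:1761319-1761378 on the minus strand, in exon 2 of 9, opposite the antisense gene AC068580.3.
CTSD: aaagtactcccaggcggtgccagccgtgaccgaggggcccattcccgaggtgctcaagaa
AC068580.3: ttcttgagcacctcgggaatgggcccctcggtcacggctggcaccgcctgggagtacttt

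That of CTSA, which encodes the lysosomal protective protein cathepsin A, lies at chr20:45892725-45892784 on the plus strand, in exon 6 of 15, opposite the antisense gene AL008726.1.
CTSA: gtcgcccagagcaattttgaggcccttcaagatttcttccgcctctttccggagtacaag
AL008726.1: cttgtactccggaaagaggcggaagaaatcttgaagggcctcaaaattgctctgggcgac

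Some genes on the other strand held far more counts per base than the protease genes, and others held fewer. Levels from here on are CPM with library sizes scaled by TMM, the trimmed mean of M-values method, and divided by the length of the merged exons in kilobases, which allows genes to be compared with each other. C10orf55 stood at 943 ± 161 CPM per kilobase in Con and 987 ± 60.5 in Ang, 11.8 times the level of PLAU. AC068580.3 was 46.5 times above CTSD, at 430 ± 82.9 and 446 ± 17.9 CPM per kilobase, and AL008726.1 was 58.3 times above CTSA, at 704 ± 175 and 751 ± 40.1. The antisense gene AC022966.1, whose 367 bases all lie under exons of TIMP2, was 116 times above TIMP2, at 3866 ± 689 and 4348 ± 248 CPM per kilobase. IAH1, an esterase gene that shares 12.3% of the exon bases of ADAM17, was 7.34 times above ADAM17. By contrast MMP24OS, which shares 18.1% of the exon bases of MMP24, stood at 0.0921 times the level of MMP24. NEURL2 shares 17.7% of the exon bases of CTSA, more than the 7.34% of AL008726.1, and stood at 0.137 times the level of CTSA. The levels of these 5 high partners were lowest in Con replicate 2 of all 6 libraries, while PLAU, TIMP2 and CTSA were highest there. Neither these 5 nor MMP24OS differed between Ang and Con by the edgeR quasi-likelihood test after adjustment over all genes, and NEURL2 was not tested.

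**Figure D1:**
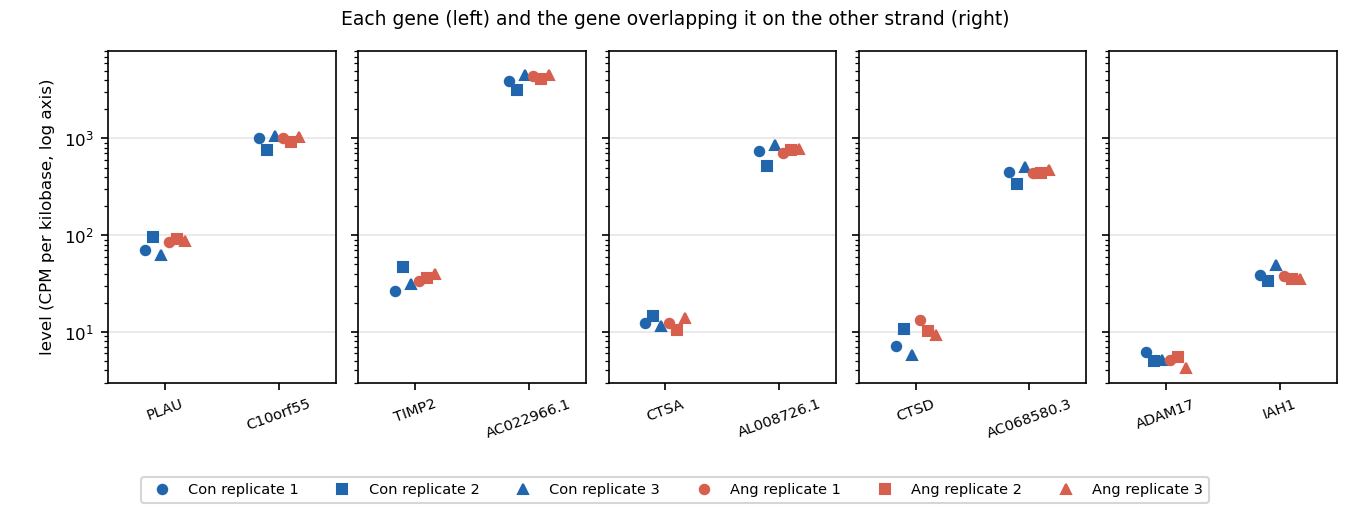
Level per library (CPM per kilobase, log axis) of PLAU, TIMP2, CTSA, CTSD and ADAM17 on the left of each panel. On the right is a gene overlapping it on the other strand, without the lower partners of CTSA and ADAM17. Each point is 1 library, blue for Con and red for Ang, with the symbol giving the replicate. In every panel the partner lies above the protease or inhibitor gene, by 7.34 times for ADAM17 and by 116 times for TIMP2, and the square of Con replicate 2 is the lowest partner value.

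The promoter sequences of 26 of the 41 listed genes were found in the RefSeq table (GRCh38.p14, 250 bases before to 50 after the gene start). The AP-1 motif TGANTCA, the site of the factors that respond to phorbol ester and growth signals, was searched on both strands and occurred in 3 of them (PLAUR, MMP7 and MMP10), and in 7.71% of all 35116 promoters. The E-box CACGTG, the core of the element bound by the lysosomal regulator TFEB, occurred in 5 (ADAM10, ADAMTS6, CTSA, CTSD and HPSE), against 7.26% of all promoters. These 2 motifs do not overlap each other in any sequence shown. The following windows, with the motif in capitals, are given for the urokinase receptor and for 2 cathepsins whose values follow, and such a match is a description only. The PLAUR window is chr19:43670337-43670367 on the minus strand, 186 bases before the gene start, the CTSA window is chr20:45891281-45891310 on the plus strand, 42 bases before it, and the CTSD window is chr11:1763957-1763986 on the minus strand, 47 bases before it.
PLAUR: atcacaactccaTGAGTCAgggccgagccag
CTSA: gaggaagactgtCACGTGgcgccggagttc
CTSD: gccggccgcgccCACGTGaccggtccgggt

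In the deposited counts, CTSZ, MMP24, MMP14 and PLAU had the highest levels per kilobase. Whether the counts of these genes came from the genes themselves or from the other strand was not tested for any of them. MMP24 and PLAU have exon bases under genes of the other strand, while CTSZ and MMP14 have none. These 4 were the only genes of the 39 at or above 50 CPM per kilobase over all libraries, 14 reached 10 and 9 stayed below 1. Cathepsins made up 54.9% of the summed level of the 39 genes, membrane-type MMPs 18.2%, the plasminogen activators and their receptor 12.3%, TIMPs 6.77% and ADAMs 5.17%, while the secreted MMPs made up 0.340%. For the 5 largest classes the group means of the summed levels differed by less than the larger SD. The cathepsins summed to 584 ± 66.2 CPM per kilobase in Con and 590 ± 27.0 in Ang, the membrane-type MMPs to 189 ± 16.8 and 199 ± 9.74, the plasminogen activators and receptor to 124 ± 30.5 and 139 ± 6.25, the TIMPs to 69.4 ± 18.6 and 75.3 ± 4.67, and the ADAMs to 52.9 ± 6.70 and 57.6 ± 4.08 (SD, n = 3 libraries each). The ADAMTS and BMP1 class, at 7.01 ± 0.958 and 5.93 ± 0.570, and heparanase, at 0.776 ± 0.271 and 0.299 ± 0.252, differed by more than either SD, and the secreted MMPs were at 3.21 ± 0.775 and 4.05 ± 1.78.

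**Figure D2:**
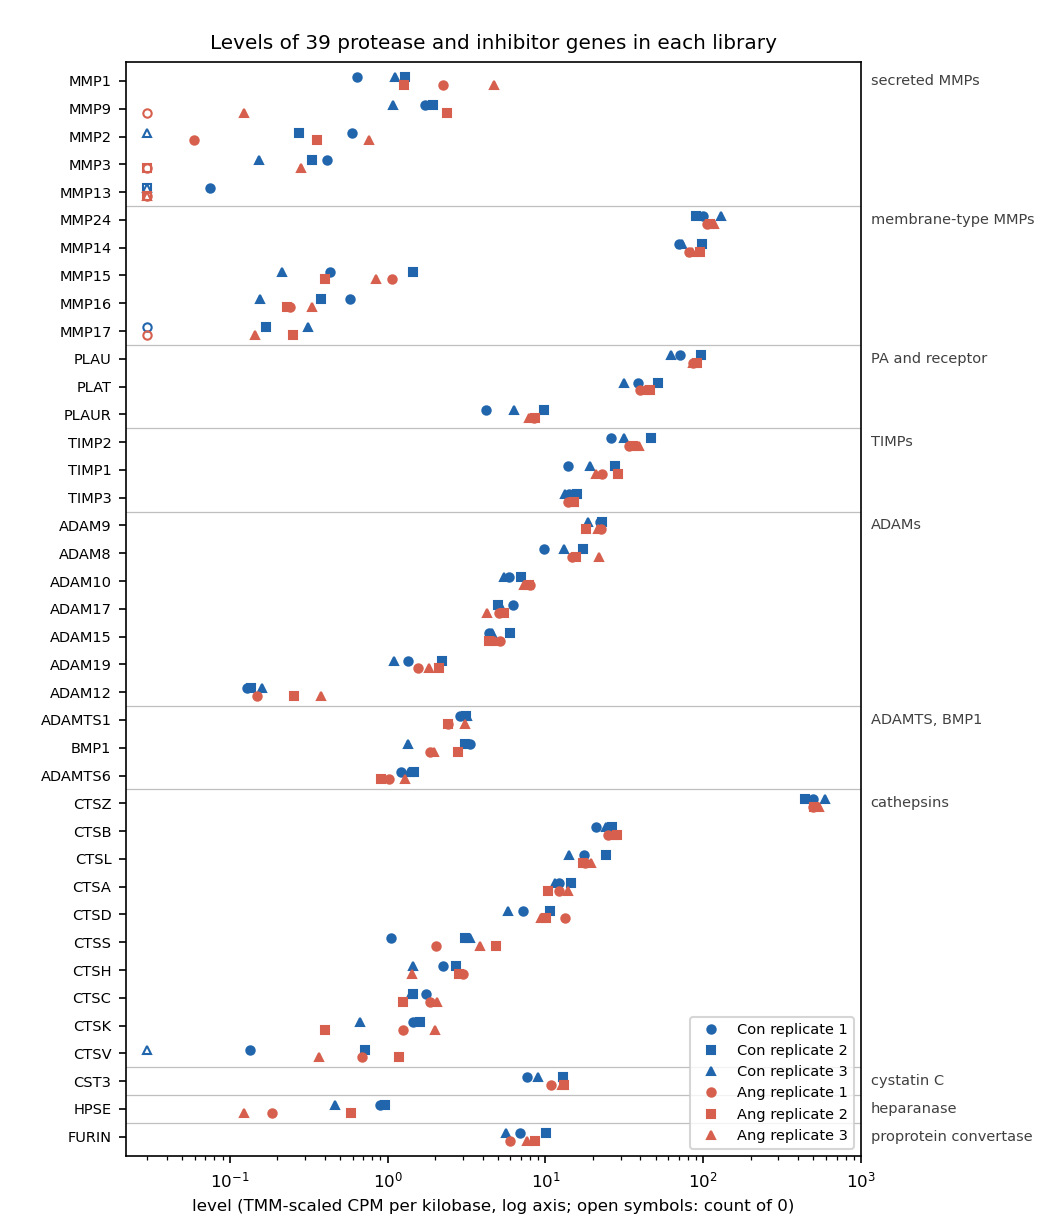
Level of each of the 39 genes in each library (TMM-scaled CPM per kilobase of exon, log axis), grouped by protease class, with blue for Con, red for Ang, the symbol giving the replicate and open symbols at the left edge marking a count of 0; PA stands for plasminogen activators. CTSZ lies highest, from 444 to 595, and the secreted MMPs and HPSE all lie below 5.

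No protease or inhibitor gene passed the test of Ang against Con. Of the 39 genes, 34 passed the filter on low counts, and edgeR's quasi-likelihood test called 0 of these after Benjamini-Hochberg adjustment over all 14547 genes tested, where 0% of all genes were called. The smallest adjusted p among the 34 was 0.999, and DESeq2 and limma-voom also called 0 of them. At an unadjusted p under 0.05 there was 1 gene, MMP1, which is 2.94% of the 34, against 3.4% of all genes tested. DESeq2 gave 2 of the set, MMP1 and ADAM10, and 411 over all genes. Limma-voom gave 1 of the set, which was MMP9 and not MMP1, and 447 over all genes. The unadjusted p of MMP1 by limma-voom was 0.0977. Log2 fold changes, Ang minus Con, were positive for 20 and negative for 14 of the 34, with a median of 0.07 against -0.01 over all genes. All 3 Ang libraries lay above all 3 Con libraries in 1 gene, ADAM10, where 3.62% of all genes did so, and below them in 0, where 4.54% of all genes did. These shares were near the background. For 25 of the 34 genes (73.5%) a 2-fold difference, up or down, was outside the 95% confidence interval, against 64.2% of all genes tested. The other 9 were MMP1, MMP9, MMP15, MMP16, ADAMTS6, CTSK, CTSS, CTSV and HPSE, of which CTSS had the highest level, 3.03 CPM per kilobase over all libraries.

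**Figure D3:**
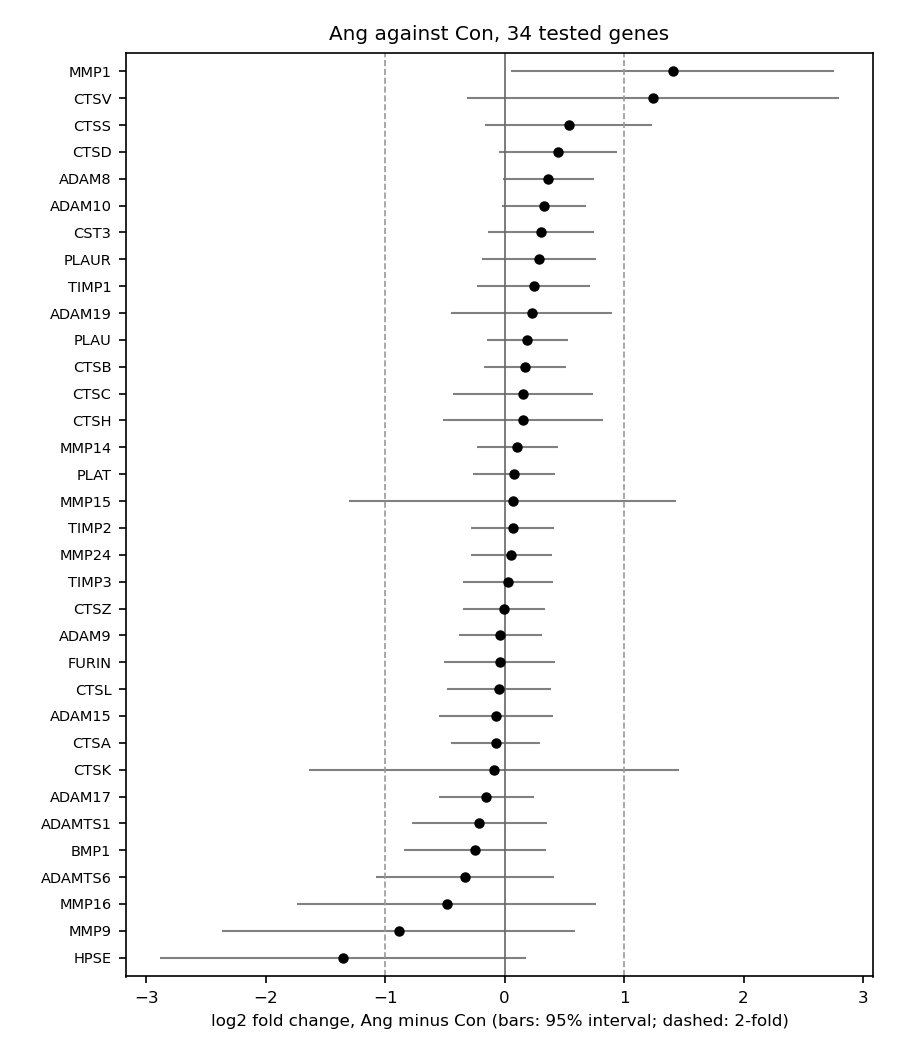
Log2 fold change, Ang minus Con, of the 34 tested genes with its 95% confidence interval from the edgeR fit over all genes, sorted by value, with dashed lines at a 2-fold change in each direction. The intervals of 33 genes include 0, and that of MMP1 runs from a fold of 1.04 to 6.76 before adjustment.

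Secreted collagenases, gelatinases and stromelysin had few counts in the deposited files, and whether their RNA was scarce in the cells was not tested. MMP1, the interstitial collagenase gene at chromosome 11 (102789920 to 102798160), had 0.643, 1.29 and 1.12 CPM per kilobase in Con, given here and below in the order of the replicate numbers, and 2.23, 1.28 and 4.69 in Ang. Ang replicates 1 and 3 were above all Con libraries and Ang replicate 2 was within their range. The counts were 28 over Con and 57 over Ang, which is a ratio of 2.60 after scaling for depth (exact 95% interval from counting error alone, 1.63 to 4.24). In the edgeR fit, where the spread between libraries enters, the log2 fold change was 1.41 ± 0.69 (SE), with an unadjusted p of 0.0416 and an adjusted p of 0.999. The value rested on Ang replicate 3, without which the log2 fold change of MMP1 was 0.77 (unadjusted p of 0.404 by edgeR). MMP1 had the highest mean level of the secreted MMPs over all 6 libraries, although MMP9 was higher in Con. Of the exon bases of MMP1 7.61% lie under WTAPP1, a pseudogene of the other strand. WTAPP1 stood at 3.66 times the level of MMP1 over all libraries.

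MMP9, the gelatinase B gene, went from 1.72, 1.95 and 1.08 CPM per kilobase in Con to 0, 2.37 and 0.124 in Ang. Its counts in Ang were 0, 22 and 1, so that the group held both the highest and the lowest library of all 6. The log2 fold change of -0.89 ± 0.75 did not pass the test, with an unadjusted p of 0.239 by edgeR. The estimate also depended on the method. It was -2.47 ± 1.04 by limma-voom (unadjusted p of 0.0195, not passing after adjustment). By DESeq2 it was -0.90 ± 1.57, and by edgeR with the replicate block -1.67 ± 0.89. Of the exon bases of MMP9 18.4% lie under exons of the other strand, and whether its counts came from MMP9 itself was not tested. The value for MMP9 changed with each Ang library left out: it was -0.34 without replicate 1, -4.42 without replicate 2 (unadjusted p of 0.00211 by edgeR, not passing after adjustment) and -0.40 without replicate 3. MMP2, the gelatinase A gene and the substrate that MMP14 and TIMP2 activate together, had 22 counts over Con and 21 over Ang. MMP3, the stromelysin gene, had 9 and 2 counts, a ratio of 0.284 (exact 95% interval 0.0298 to 1.37), and the collagenase gene MMP13 had 1 count in Con replicate 1 and 0 elsewhere. These 3 did not reach the filter and were not tested.

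In the deposited counts, 2 of the membrane-type MMPs were abundant and 3 were scarce. MMP14, the membrane-bound collagenase at the leading edge of invading cells, lies on chromosome 14 (22836557 to 22849027) and has no exon under a gene of the other strand. It had 70.1, 98.5 and 73.8 CPM per kilobase in Con and 81.1, 95.4 and 84.4 in Ang. Con replicate 2 was the highest and Con replicate 1 the lowest, and the groups overlapped. Its fold change was 1.08, with a 95% confidence interval of 0.850 to 1.36, so that any difference in these counts between the groups of libraries lay well inside 2-fold. MMP24, a membrane-type MMP gene better known from neural tissue, had 100.2, 90.2 and 130 CPM per kilobase in Con and 106, 110 and 117 in Ang. It was lowest in Con replicate 2, unlike MMP14, and its fold change was 1.04 (0.822 to 1.32). Of the exon bases of MMP24, 21.8% lie under exons of the other strand, and whether its counts came from MMP24 itself was not tested. MMP15, MMP16 and MMP17, at 0.735, 0.319 and 0.147 CPM per kilobase over all libraries, lay more than 100 times below MMP14. MMP15 and MMP16 had intervals wider than 2-fold, and MMP17, with 8 counts in Con and 6 in Ang, was not tested.

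All 3 TIMP genes were detected at levels between 10 and 50 CPM per kilobase. TIMP2, which both inhibits MMPs and bridges MMP14 to pro-MMP2, had 26.2, 46.6 and 31.3 in Con and 33.9, 35.9 and 39.4 in Ang. TIMP1, the main inhibitor of secreted MMPs, had 14.0, 27.8 and 19.2 in Con and 22.8, 28.8 and 20.8 in Ang, and TIMP3, which binds to the matrix and also inhibits ADAM17, ran from 13.3 to 15.8 over all libraries. The Con range of TIMP1 and TIMP2 was set by a low replicate 1 and a high replicate 2, and each included nearly all Ang values. Their fold changes were 1.19 (0.854 to 1.64), 1.05 (0.824 to 1.33) and 1.02 (0.784 to 1.33) for TIMP1, TIMP2 and TIMP3. The level of MMP14 over that of TIMP2 was 2.38 ± 0.283 in Con and 2.40 ± 0.258 in Ang, a difference smaller than the spread of the libraries.

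The genes of the urokinase system had counts in every library, and in the deposited counts the ligand gene lay far above the receptor gene per kilobase. PLAU, the urokinase gene at chromosome 10 (73909177 to 73917497), had 71.0, 96.6 and 62.2 CPM per kilobase in Con and 85.7, 90.9 and 86.0 in Ang. The Ang libraries were tightly grouped and lay between Con replicate 1 and Con replicate 2, and the fold change of 1.14 had an interval of 0.901 to 1.45. PLAT, the tissue plasminogen activator gene, had 38.5, 51.9 and 31.4 in Con and 39.6, 46.3 and 43.0 in Ang, with a fold change of 1.06 (0.834 to 1.34). PLAUR, the urokinase receptor gene, had 4.22, 9.75 and 6.28 in Con and 8.43, 8.60 and 7.91 in Ang (1.22, 0.879 to 1.70). The level of PLAU was 16.8, 9.91 and 9.90 times that of PLAUR in Con and 10.2, 10.6 and 10.9 times in Ang, so that Con replicate 1 alone stood higher. Of the exon bases of PLAU 31.1% lie under exons of the other strand, and of those of PLAUR 0%. Whether the counts of PLAU came from PLAU itself was not tested.

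The ADAM genes held the only one whose groups did not overlap. ADAM10, the alpha-secretase that sheds Notch and cadherins, lies on chromosome 15 (58588807 to 58749978). It had 5.89, 7.05 and 5.45 CPM per kilobase in Con and 7.95, 7.89 and 7.34 in Ang. The highest Con value was just below the lowest Ang value, and the log2 fold change was 0.33 ± 0.18, with an unadjusted p of 0.0647 and an adjusted p of 0.999 by edgeR. ADAM8, an ADAM gene tied to invasion of breast cancer cells, had 9.85, 17.4 and 13.2 in Con and 14.8, 15.6 and 21.9 in Ang, a log2 fold change of 0.37 ± 0.19 (unadjusted p of 0.0578 by edgeR). Only Con replicate 2 kept its groups from separating. ADAM9 had the highest level of the ADAM genes, 22.1, 22.7 and 18.5 in Con and 22.4, 18.1 and 21.4 in Ang, and a fold change of 0.976 (0.768 to 1.24). ADAM17, the sheddase of TNF and of EGF receptor ligands, was at 5.48 ± 0.669 in Con and 4.93 ± 0.598 in Ang, and ADAM15 and ADAM19 were at 4.88 and 1.70 over all libraries with fold changes of 0.953 and 1.17. ADAM12 had 19 counts in Con and 28 in Ang and was not tested.

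All 3 genes of the ADAMTS and BMP1 class had lower mean values in Ang, none past the test. BMP1, the procollagen C-proteinase gene, had 3.34, 3.08 and 1.35 CPM per kilobase in Con and 1.85, 2.80 and 1.97 in Ang, a log2 fold change of -0.25 ± 0.30. ADAMTS1, a protease of versican and aggrecan, had 2.87, 3.14 and 3.21 in Con and 2.41, 2.43 and 3.11 in Ang (-0.21 ± 0.29), and ADAMTS6 had 1.35 ± 0.136 and 1.07 ± 0.189 (-0.33 ± 0.38). In each the Ang and Con values overlapped. FURIN, the convertase that activates membrane-type MMPs and many ADAMs, had 6.88, 10.1 and 5.65 in Con and 5.96, 8.59 and 7.64 in Ang, with a fold change of 0.972 (0.704 to 1.34).

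Among the cathepsins CTSZ alone made up 87.3% of the summed level in the deposited counts. Whether the counts of CTSZ, CTSA and CTSD came from those genes themselves was not tested. CTSZ, a carboxypeptidase of the cysteine cathepsin family on chromosome 20 (58995185 to 59007247), had 499, 444 and 595 CPM per kilobase in Con and 493, 501 and 541 in Ang. Its lowest library was Con replicate 2 and its highest Con replicate 3, and the fold change of 0.998 had an interval of 0.787 to 1.27. CTSB, a cysteine cathepsin often secreted by tumour cells, followed at 20.9, 26.6 and 24.1 in Con and 25.1, 28.6 and 26.9 in Ang (1.12, 0.888 to 1.42). CTSL, another cysteine cathepsin, had 18.7 ± 5.22 and 18.2 ± 1.16, and CTSA had 12.8 ± 1.57 and 12.2 ± 1.75. Both had intervals within 2-fold.

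CTSD had 7.16, 10.8 and 5.84 CPM per kilobase in Con and 13.3, 10.2 and 9.33 in Ang. Without Con replicate 2 the groups would not have overlapped, and the log2 fold change over all libraries was 0.45 ± 0.25 (unadjusted p of 0.0768 by edgeR). CTSV, a cathepsin close to CTSL, had 0.135, 0.719 and 0 CPM per kilobase in Con, from 3, 20 and 0 counts, and 0.687, 1.18 and 0.369 in Ang, from 11, 22 and 6 counts, with a log2 fold change of 1.24 ± 0.79, and CTSS, best known from antigen-presenting cells, had 2.49 ± 1.26 and 3.58 ± 1.45 (0.54 ± 0.36). CTSC, CTSH and CTSK lay at 1.63, 2.28 and 1.23 over all libraries, with log2 fold changes between -0.09 and 0.15. CST3, the gene of the secreted cysteine cathepsin inhibitor cystatin C, had 7.60, 12.9 and 9.02 in Con and 10.9, 13.0 and 12.7 in Ang, a fold change of 1.23 (0.906 to 1.68). The level of CTSB was 2.75, 2.06 and 2.68 times that of CST3 in Con and 2.31, 2.20 and 2.12 times in Ang, with overlapping groups.

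HPSE, the gene of heparanase, which cuts heparan sulfate chains and so releases growth factors from the matrix, had the most negative log2 fold change of the set. It had 20, 27 and 7 counts in Con and 3, 11 and 2 in Ang, or 0.895, 0.967 and 0.466 CPM per kilobase against 0.186, 0.587 and 0.122. Ang replicate 2 lay above Con replicate 3, so the groups overlapped. Scaled for depth, Ang had 0.378 times the counts of Con (exact 95% interval from counting error alone, 0.202 to 0.671), and the edgeR log2 fold change was -1.35 ± 0.78 with an unadjusted p of 0.0838.

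The size of many of these differences depended on Con replicate 2. Its value was above the mean of the other 5 libraries in 29 of the 34 genes (85.3%), against 54.2% of all tested genes. The median difference over the 34 was 0.33 on the log2 scale, against 0.05 over all tested genes. Con replicate 2 was the highest of the 6 libraries for 15 of the 34 genes (44.1%), against 19.9% of all genes. It was the lowest for 2, which were CTSZ and MMP24. These shares were not taken over protein-coding genes alone, which held a larger part of the counts in Con replicate 2. Without it, 33 genes of the set were tested. Log2 fold changes were above 0 in 25 of them, and the median was 0.28 against -0.00 over all genes. At an unadjusted p under 0.05, 13 of the 33 (39.4%) were then higher in Ang, where 5.47% of all genes were, and 0 were lower, where 5.52% of all genes were. Protein-coding genes averaging 10 CPM or more had a share of 8.34% higher in Ang, against 11 of the 27 genes of the set among them (40.7%). As Con replicate 2 was high for most of the set, leaving it out lowers their Con mean. These shares are therefore no separate evidence of a rise in Ang. Leaving out Con replicate 1 or Con replicate 3 instead gave 0 genes of the set at an unadjusted p under 0.05 by edgeR.

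These 13 were spread over the classes: MMP1 and MMP14, PLAU, PLAUR and PLAT, TIMP1 and TIMP2, ADAM8 and ADAM10, CTSB, CTSD and CTSV, and CST3. ADAM8 had a log2 fold change of 0.61 ± 0.18 without Con replicate 2, PLAUR 0.68 ± 0.25, CTSD 0.74 ± 0.26, PLAU 0.39 ± 0.12, TIMP2 0.35 ± 0.13 and MMP14 0.28 ± 0.11. The log2 fold change of CTSV rose from 1.24 to 3.17 ± 1.22, as its remaining Con libraries held 3 and 0 counts. None of the 13 passed after adjustment over all 14867 genes tested then, of which 0.269% were called. The smallest adjusted p among them was 0.122, for ADAM8, by edgeR. MMP15 moved from 0.07 to 1.19 with an unadjusted p above 0.05. The low count ratio of opposite-strand genes and the high protein-coding share of Con replicate 2 moved with these values, and their part in them was not tested. With all 6 libraries and that ratio as a term in the fit, chosen after seeing the data, 6 of the 34 genes had an unadjusted p under 0.05 and 0 passed after adjustment. Over all 14547 genes tested, 942 had such an unadjusted p in that fit.

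**Figure D4:**
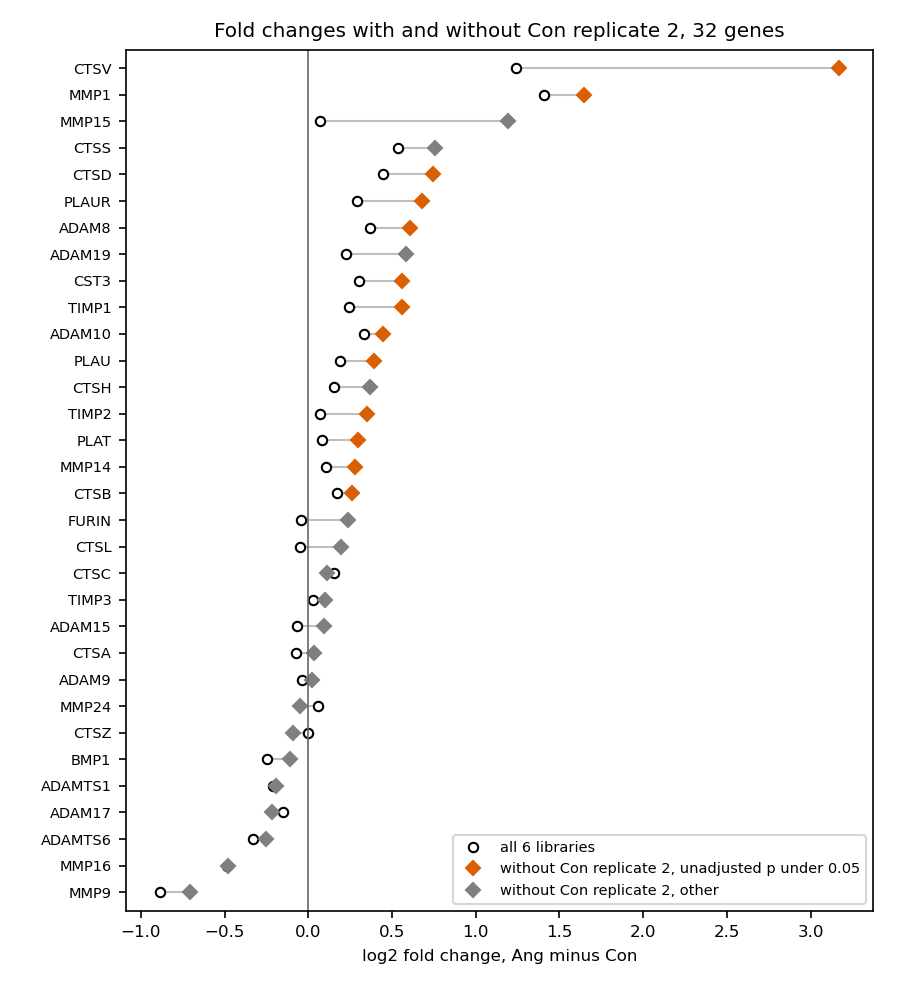
Log2 fold change, Ang minus Con, of the 32 genes tested both with all 6 libraries (open circles) and without Con replicate 2 (diamonds, orange where the unadjusted p was under 0.05). Most genes lie further to the right without Con replicate 2, while CTSZ goes from -0.00 to -0.09 and MMP24 from 0.06 to -0.05.

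Other genes of these pathways were read from the same fit. Of 70 further MMPs, ADAM and ADAMTS proteases, cathepsins, serpins, cystatins, convertases and sorting receptors, 62 were matched and 36 were tested. By the edgeR test 0 passed after adjustment and 1 had an unadjusted p under 0.05, RHBDF2, a rhomboid-like gene that carries ADAM17 to the cell surface, with 20.4 ± 8.99 CPM in Con and 30.5 ± 6.32 CPM in Ang (log2 fold change 0.56 ± 0.27). Positive values numbered 22 of 36, with a median of 0.05. All 3 Ang libraries lay above all 3 Con libraries in 3 of the 36, MMP19, SERPINE2 and CTSO, which are named after their values were seen. Of all genes tested, 3.62% did so. SERPINE2 had only 24 counts over Con and 42 over Ang, and CTSO 32 and 55. The unadjusted p by edgeR was 0.0548 for MMP19, 0.156 for SERPINE2 and 0.0997 for CTSO. Among those with the highest levels were PSAP, the gene of the lysosomal saposin precursor, at 59.5 CPM per kilobase, BSG, which encodes the MMP inducer basigin, at 50.9, and CST1, a salivary-type cystatin gene, at 24.0, with log2 fold changes of 0.13 ± 0.17, 0.07 ± 0.17 and 0.20 ± 0.29.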

How the data were processed

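The authors deposited whole-number read counts per Ensembl gene for each of the 6 libraries. Per the submitters' processing notes, HTSeq 0.9.1 and DESeq 1.39.0 were used with genome build GRCh38; for the aligner, annotation release and strand setting, the sources used here give nothing. Of 28979 gene IDs, 28918 had a symbol and 28192 were in GENCODE 29. No 2 libraries of the same group were identical or within sampling noise (chi-square per gene 3.60 to 12.8). The counts were tested with edgeR 4.0.16 in R 4.3.3 (filterByExpr, TMM, robust quasi-likelihood, Ang against Con, no replicate term), with Benjamini-Hochberg adjustment over all tested genes at 0.05, and the fits were tested on simulated data. SEs and intervals come from the quasi-likelihood F statistic. Exon overlap between strands was taken with bedtools 2.31.1. Exact intervals of low-count ratios are Clopper-Pearson at 95%; PCR reads without molecular identifiers make these cover counting error only. Strand pairs needed 90% of the non-coding exon bases covered, 300 counts in the coding gene, and 0.5 added to each count. Alternatives were RLE scaling, other filters, a replicate block, DESeq2 1.42.0, limma-voom (limma 3.58.1), genes with at most 10% overlap and leaving out each library. The genes, classes and lists were chosen with earlier results of these data known. In full are given the 2 highest genes of each class, the 6 with the smallest p, and those whose groups do not overlap. Of the other pathway genes, those with the highest levels are named, and 1 is not reported here.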

Additional observations from a re-analysis of the deposited data

How the results depend on the processing

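No setting called a gene of the set. Over all genes the call count of 0 stayed at 0 with no filter on low counts, a 1 CPM minimum in 3 libraries, scaling by RLE, DESeq2, limma-voom, the replicate block and genes with at most 10% opposite-strand overlap (unadjusted p under 0.05: 399 to 827 genes), and was 0 to 40 when 1 library was left out. Leaving out Con replicate 2 gave the 40, leaving out Con replicate 1 gave 1, and the cause was not tested. A strand ratio term, chosen after seeing the data, gave 4 genes, 0 of the set. At an unadjusted p under 0.05 it gave 6 of the set and 942 over all genes. Genes of the set at that level numbered 13 without Con replicate 2 and 0 to 3 in every setting other than these 2. Over all genes the numbers were 1633 and 399 to 827. Of 466 alternative log2 fold changes, 436 kept their sign and 30 changed it without a call. Same-numbered Con and Ang libraries had correlations of deviations of 0.037, 0.068 and 0.036, so the numbers were not taken as pairs; the block gave 0 genes and 0 of the set. Without genes over 10% opposite-strand overlap, the summed level became 1.63 CPM per kilobase in Con and 3.22 in Ang for secreted MMPs, 82.0 in Con and 88.2 in Ang for membrane-type MMPs, 47.4 in Con and 52.7 in Ang for ADAMs, and 47.3 in Con and 51.3 in Ang for plasminogen activators and receptor, since MMP9, MMP24, ADAM17 and PLAU leave the sums. With 3 libraries a group, changes in genes of few counts would often be missed.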

Other observations

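The 2 genes with the highest levels of the set, CTSZ and MMP24, were the only ones of the 34 tested that were lowest in Con replicate 2, by -0.24 and -0.32 on the log2 scale against the mean of the other 5 libraries. In the same measure PLAU, TIMP2, CTSA and CTSD were at 0.30, 0.50, 0.27 and 0.29, and the genes opposite to them, C10orf55, AC022966.1, AL008726.1 and AC068580.3, at -0.40, -0.45, -0.57 and -0.43. CTSZ has no exon under a gene of the other strand in GENCODE 29, but the gap to NELFCD, a transcription elongation factor gene that ends next to it on the other strand, is 51 bases. Whether counts assigned to CTSZ or MMP24 came from these genes themselves was not tested.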
